A study of Arabidopsis thaliana with 9 samples.

Results

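Indole glucosinolates are tryptophan-derived defence compounds of the cabbage family, and 10 Arabidopsis thaliana genes of their synthesis and control are described here out of 33602 genes in the count table. The genes were chosen by name and locus for their place in the pathway, with earlier results of these data known. All 10 passed the filter on low counts. They were 3 MYB regulators (MYB34, MYB51 and MYB122), 5 genes of core synthesis (CYP79B2, CYP79B3, CYP83B1, SUR1 and UGT74B1) and 2 genes that modify the indole ring (CYP81F2 and IGMT1). Polyadenylated RNA was measured in 9 libraries of seedlings 6 days old, grown in liquid medium with sucrose. The wild type was Col-0, given either ethanol diluted 5000-fold (mock WT) or jasmonate at 5 µM over 3 h (JA WT), and the lhp1 mutant received the same mock solution (mock lhp1). Each group held 3 libraries that the design text calls biological replicates, and lhp1 plants with jasmonate were not analysed here. LHP1 is a chromodomain protein that works with Polycomb complexes to keep chromatin silent.

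In this pathway the cytochromes P450 CYP79B2 and CYP79B3 turn tryptophan into indole-3-acetaldoxime, which CYP83B1 oxidises. Conjugation to glutathione, cleavage by the C-S lyase SUR1, glucosylation by UGT74B1 and sulfation then yield indol-3-ylmethyl glucosinolate. Hydroxylases of the CYP81F group and the indole glucosinolate O-methyltransferases (IGMT) decorate the indole ring, and myrosinases such as PEN2 and PYK10 release the active products. MYB34, MYB51 and MYB122 activate the synthesis genes, and jasmonate is a known inducer of the pathway through MYC transcription factors that bind G-box sequences.

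Library totals ran from 18081553 to 31454984 counts, with the mock lhp1 libraries the shallowest, and levels below are in CPM, counts scaled by depth and TMM factor. The level of LHP1 was 20.7, 13.9 and 18.6 CPM in mock WT, against 19.3, 18.4 and 19.5 for the JA WT libraries and 10.2, 8.33 and 9.81 for mock lhp1, a fall by 0.91 ± 0.14 on the log2 scale in the mutant (edgeR adjusted p = 0.00116). Mock WT replicate 2 stood apart from its group in the floral genes SEP3, AP3, PI and AG. SEP3 was at 94.6 CPM there and at 27.8 and 26.4 in replicates 1 and 3. AP3 was at 16.4 against 0.544 and 0.415, PI at 5.13 against 0.335 and 0.189, and AG at 5.67 against 0.837 and 1.09. Across genes with enough counts mock WT replicate 2 was not the most distant library. The chi-square per degree of freedom, which grows with differences beyond sampling noise, was 37.9 between mock WT replicates 1 and 2. It was 26.2 between replicates 1 and 3 and 20.8 between replicates 2 and 3. The libraries expressed leaf and root genes, as whole seedlings do, but in different amounts between groups. The summed CPM of 4 photosynthesis markers was 17700 to 25200 in mock WT, 23400 to 24500 after jasmonate and 10100 to 10400 in the mutant, where 4 of 4 were lower. That of 4 root markers was 2910 to 4140, 4650 to 4830 and 4770 to 5180, with 1 of 4 (PYK10) higher in JA WT and 3 of 4 higher in mock lhp1. PYK10, also a gene of the pathway lists below, made up nearly all of that sum, and the other 3 root markers summed to 54.5 to 87.2 CPM in mock WT, 66.1 to 67.5 after jasmonate and 87.4 to 106 in the mutant. For 4 flower markers it was 28.1 to 122, 22.4 to 27.1 and 205 to 208 (1 of 4, AG, lower in JA WT and 2 of 4 higher in mock lhp1), and 3 seed markers summed to 1.87 CPM or less in every library. The part of these markers in the results was not tested. In whole seedlings fewer cells of a type and less RNA per cell cannot be told apart.

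The promoters of the core synthesis genes are shown because these 5 genes all rose after jasmonate. Each is the 250 bases before the annotated start in RefSeq's TAIR10.1, 5′ to 3′ on the strand of the gene. The CYP79B pair comes first, and its capitals mark runs of at least 12 bases that both promoters hold.
CYP79B2 (chr4:18524792-18525041, plus strand): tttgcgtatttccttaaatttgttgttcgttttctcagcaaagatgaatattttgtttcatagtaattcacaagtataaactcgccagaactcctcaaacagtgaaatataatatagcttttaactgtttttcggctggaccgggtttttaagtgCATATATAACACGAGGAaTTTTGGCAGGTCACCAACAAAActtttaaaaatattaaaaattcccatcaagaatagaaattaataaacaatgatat
CYP79B3 (chr2:9488163-9488412, plus strand): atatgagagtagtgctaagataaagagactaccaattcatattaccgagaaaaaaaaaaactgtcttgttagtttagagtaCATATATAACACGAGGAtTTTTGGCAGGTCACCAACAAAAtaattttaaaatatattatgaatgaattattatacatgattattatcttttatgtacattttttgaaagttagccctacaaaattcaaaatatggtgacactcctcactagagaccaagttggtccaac
The shared runs were 17 and 22 bases long with a single mismatch between them. They lay at the same spacing 95 and 77 bases before the CYP79B2 start, and 169 and 151 bases before the CYP79B3 start. Each run occurred in 2 of the 27443 protein-coding gene promoters searched on both strands, which were those of this pair. These matches were fixed in advance, because the runs were taken from these promoters. The block was singled out after the sequences were seen. The coding sequences of the pair were 80.8% identical over 1694 aligned bases.

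The other 3 core promoters are shown with capitals for matches on either strand to the G-box CACGTG, the related AACGTG (called T/G-box here) or ACCNANC, a pattern like the AC elements that some MYB factors bind.
CYP83B1 (chr4:15275405-15275654, minus strand): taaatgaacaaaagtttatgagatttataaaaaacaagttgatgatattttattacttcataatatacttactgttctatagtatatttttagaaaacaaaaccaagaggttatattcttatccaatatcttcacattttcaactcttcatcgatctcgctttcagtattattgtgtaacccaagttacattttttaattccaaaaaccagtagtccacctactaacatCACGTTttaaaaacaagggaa
SUR1 (chr2:8880441-8880690, minus strand): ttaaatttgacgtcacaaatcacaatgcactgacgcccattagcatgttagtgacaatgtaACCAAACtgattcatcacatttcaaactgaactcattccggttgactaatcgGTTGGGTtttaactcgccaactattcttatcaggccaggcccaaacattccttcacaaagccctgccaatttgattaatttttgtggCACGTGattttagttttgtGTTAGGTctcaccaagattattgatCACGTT
UGT74B1 (chr1:8527088-8527337, minus strand): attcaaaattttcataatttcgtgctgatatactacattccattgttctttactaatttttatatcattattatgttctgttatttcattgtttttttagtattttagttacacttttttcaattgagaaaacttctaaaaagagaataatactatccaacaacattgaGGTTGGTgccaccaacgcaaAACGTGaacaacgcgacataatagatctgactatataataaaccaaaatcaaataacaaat
SUR1 held 1 G-box 50 bases before the start, 1 T/G-box at 6 bases and ACCNANC at 189, 137 and 31 bases. CYP83B1 held 1 T/G-box at 21 bases, and UGT74B1 held 1 T/G-box at 61 bases and ACCNANC at 81 bases. MYB122 (105 bases) and CYP81F2 (46 bases) held ACCNANC alone, and the remaining promoters, of MYB34, MYB51, CYP79B2, CYP79B3 and IGMT1, held none of the 3 patterns in this window. Either box was thus in 3 of 10 promoters against 13.3% of all 27443, and ACCNANC in 4 of 10 against 27.8%. No match overlapped another. These are matches of letters, not measured binding sites.

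Jasmonate raised 8 of the 10 genes within 3 h, including all 5 core synthesis genes. Of 20986 genes tested, 15.7% were called different, 8.62% higher and 7.07% lower in JA WT than in mock WT (edgeR's quasi-likelihood test, Benjamini-Hochberg adjusted p below 0.05). Of the 10 genes 8 were higher and 0 lower, and in those 8 the JA WT libraries did not overlap the mock WT libraries, which held for 30.1% of all tested genes. The median log2 fold change of the 10 was 1.16, where that of all tested genes was 0.000451. Counted as lower, the 10 genes gave 0 in edgeR's adjusted test, 1 at an unadjusted p under 0.05 (MYB51) and 0 with DESeq2 or limma voom. The 8 calls held in each of the 9 fits that left out 1 library and in each other alternative fit. The 2 genes that did not pass were the regulator MYB51 and the hydroxylase CYP81F2.

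**Figure D1:**
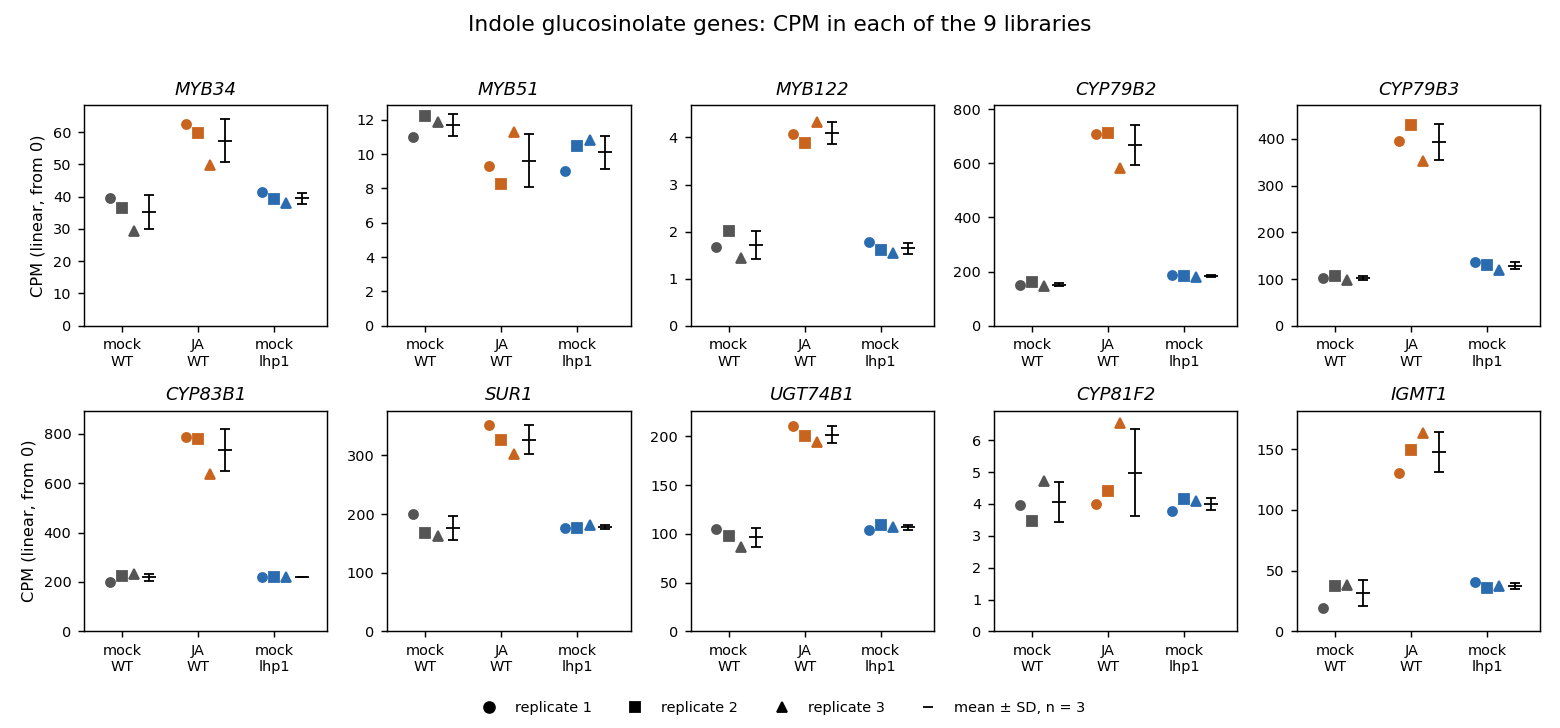
CPM (linear axis from 0, a scale of its own in each panel) of the 10 genes in each of the 9 libraries, with the mean and SD of each group of 3. The JA WT libraries lie above all other libraries for 8 genes and overlap the other groups for MYB51 and CYP81F2.

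Among the regulators MYB34, a main activator of indole glucosinolate synthesis in roots, was the most abundant. MYB34 (AT5G60890, chromosome 5, 24494291 to 24496371) was present in the 3 mock WT libraries at 39.6, 36.6 and 29.5 CPM (given in replicate order, as below), at 62.6, 59.7 and 49.8 CPM in JA WT and at 41.3, 39.2 and 38.0 CPM in mock lhp1. Each JA WT library was above every other library, and the mock groups overlapped. It rose by 0.70 ± 0.11 on the log2 scale after jasmonate (approximate SE; 1.63-fold, edgeR adjusted p = 0.00125).

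MYB122 (AT1G74080, chromosome 1, 27855578 to 27857598), the scarcest regulator, was present at 1.67, 2.02 and 1.43 CPM in mock WT, at 4.07, 3.88 and 4.33 CPM in JA WT and at 1.77, 1.62 and 1.54 CPM in mock lhp1. These values rest on 38 to 56, 79 to 125 and 32 to 36 counts per library. The JA WT libraries formed a group of their own, and the gene rose by 1.26 ± 0.18 on the log2 scale (2.39-fold, edgeR adjusted p = 0.000488).

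MYB51 (AT1G18570, chromosome 1, 6389399 to 6391386), known as a main activator of the pathway in shoots, was not called higher. It lay at 11, 12.2 and 11.9 CPM in mock WT, at 9.30, 8.24 and 11.3 CPM in JA WT and at 9.02, 10.5 and 10.8 CPM in mock lhp1. JA WT replicate 3 lay within the mock WT range while the other JA WT libraries lay below it. The log2 difference after jasmonate was −0.28 ± 0.12 with an approximate 95% interval of −0.548 to −0.004 (edgeR adjusted p = 0.166). Without JA WT replicate 3 it was −0.43 and was called lower (edgeR adjusted p = 0.0417), so a single library decided that call. The interval with all libraries lay below those of MYB34 (0.456 to 0.950) and MYB122 (0.868 to 1.64), although the difference between genes was not tested.

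Per kb of exon, the scale on which levels of different genes can be compared, MYB34 led the 3 regulators in every group. Its share of their summed level was 71.9% in mock WT, 80% after jasmonate and 76.8% in the mutant, as means of 3 libraries. The share of MYB51 went from 24.1% ± 3.39 in mock WT to 13.5% ± 3.11 in JA WT, with 19.5% ± 2.12 in the mutant (mean ± SD, n = 3), and that of MYB122 was 3.98%, 6.54% and 3.63%. The summed level of the 3 was 27.5 ± 2.88 CPM per kb in mock WT, 40.3 ± 2.98 after jasmonate and 28.9 ± 0.505 in the mutant.

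All 5 core synthesis genes rose after jasmonate, with the highest fold changes at the first 3 enzymes of the route. CYP79B2 (AT4G39950, chromosome 4, 18525042 to 18527602) stood at 150, 160 and 147 CPM in mock WT, at 709, 713 and 584 CPM in JA WT and at 186, 183 and 180 CPM in mock lhp1. The 3 groups did not overlap: mock WT was lowest, mock lhp1 stood a little above it and JA WT far above both. The rise after jasmonate was 2.13 ± 0.085 on the log2 scale (4.39-fold, edgeR adjusted p = 2.56e-08).

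CYP79B3 (AT2G22330, chromosome 2, 9488413 to 9491404), whose product does the same reaction, lay at 102, 107 and 98.8 CPM in mock WT, at 396, 430 and 353 CPM in JA WT and at 136, 130 and 120 CPM in mock lhp1. The order of the groups was that of CYP79B2, again with no overlap. It rose by 1.94 ± 0.085 on the log2 scale (3.83-fold, edgeR adjusted p = 4.9e-08). CYP79B2 made up 60.9% ± 0.12 of the pair's level per kb in mock WT, 64.1% ± 1.04 after jasmonate and 59.9% ± 1.14 in the mutant, so both copies carried the rise.

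CYP83B1 (AT4G31500, chromosome 4, 15273410 to 15275404), which commits the aldoxime to glucosinolates, was found at 201, 223 and 231 CPM in mock WT, at 785, 779 and 636 CPM in JA WT and at 222, 220 and 219 CPM in mock lhp1. The mock lhp1 libraries lay inside the mock WT range, and JA WT lay apart. It rose by 1.75 ± 0.091 on the log2 scale (3.36-fold, edgeR adjusted p = 1.72e-07).

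SUR1 and UGT74B1, which also serve aliphatic glucosinolates, rose with lower fold changes. SUR1 (AT2G20610, chromosome 2, 8877887 to 8880440) was present at 200, 168 and 162 CPM in mock WT, at 352, 326 and 302 CPM in JA WT and at 176, 176 and 182 CPM in mock lhp1. Its rise was 0.89 ± 0.088 on the log2 scale (1.85-fold, edgeR adjusted p = 3.32e-05). UGT74B1 (AT1G24100, chromosome 1, 8525334 to 8527087) was found at 105, 97.9 and 86.4 CPM in mock WT, at 211, 200 and 194 CPM in JA WT and at 104, 109 and 107 CPM in mock lhp1. It rose by 1.06 ± 0.077 on the log2 scale (2.09-fold, edgeR adjusted p = 2.51e-06). For both genes the mock groups overlapped and JA WT stood above them. The approximate 95% intervals of these 2 rises, 0.695 to 1.08 and 0.895 to 1.23, did not reach those of CYP79B2 (1.95 to 2.32), CYP79B3 (1.75 to 2.12) and CYP83B1 (1.55 to 1.95), although the difference between genes was not tested.

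Per kb of exon the 5 genes summed to 384 ± 9.93 CPM in mock WT, 1170 ± 110 after jasmonate and 418 ± 3.33 in the mutant (mean ± SD over 3 libraries). The order of levels changed with jasmonate. In mock WT, CYP83B1 (115 CPM per kb) and SUR1 (94.2) led, ahead of CYP79B2 (71.3), UGT74B1 (57.7) and CYP79B3 (45.8). SUR1 and CYP83B1 overlapped there, with SUR1 at 86.4 to 107 and CYP83B1 at 106 to 122 CPM per kb. In JA WT, CYP83B1 (386) was followed by CYP79B2 (313), CYP79B3 (175), SUR1 (174) and UGT74B1 (121), and CYP79B3 and SUR1 did not differ beyond their spread.

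**Figure D2:**
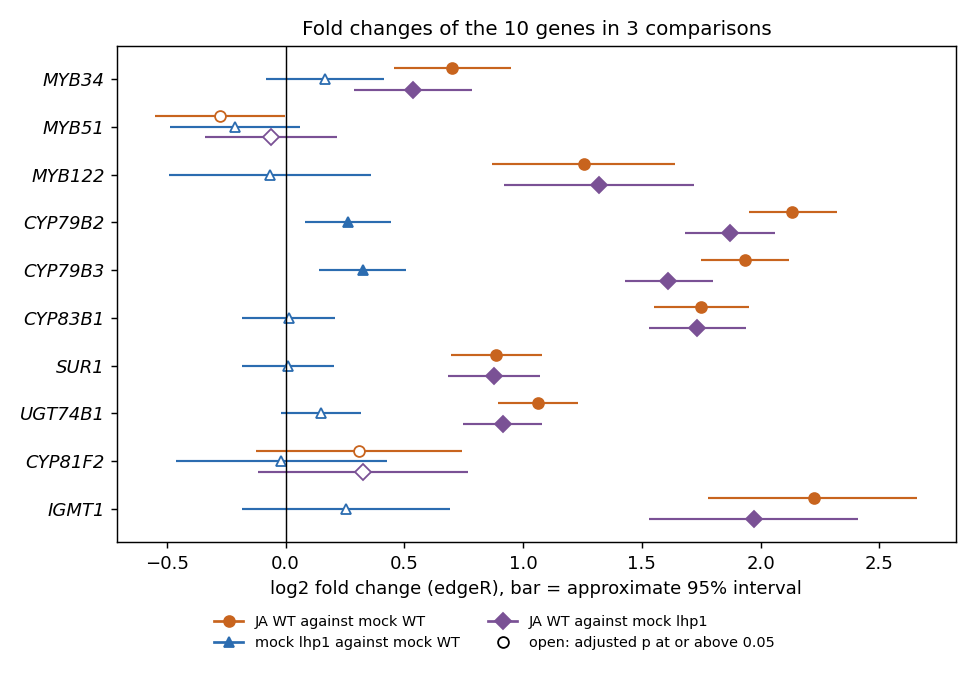
Log2 fold changes of the 10 genes in the 3 comparisons, with approximate 95% intervals from edgeR and open symbols where the adjusted p was at or above 0.05. The changes against mock WT after jasmonate reach 2.22 (IGMT1), while those in lhp1 lie between −0.21 and 0.32.

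Of the 2 ring modification genes IGMT1 rose after jasmonate and CYP81F2 did not pass. CYP81F2 (AT5G57220, chromosome 5, 23187840 to 23189902), the hydroxylase that starts 4-methoxyindol-3-ylmethyl glucosinolate synthesis and is known for its role in defence against fungi and aphids, stood at 3.98, 3.47 and 4.71 CPM in mock WT. It stood at 3.99, 4.41 and 6.54 CPM in JA WT and at 3.78, 4.14 and 4.09 CPM in mock lhp1. The groups overlapped, with JA WT replicate 3 the highest library. The log2 difference after jasmonate was 0.31 ± 0.20 with an interval of −0.125 to 0.741 (edgeR adjusted p = 0.339), and 0.0343 to 0.43 with any 1 library left out.

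IGMT1 (AT1G21100, chromosome 1, 7386762 to 7388512), a methyltransferase that acts after the hydroxylation, had the largest log2 rise of the 10 genes, with an interval (1.78 to 2.66) that held the rise of CYP79B2. It stood at 19.5, 37.1 and 37.9 CPM in mock WT, at 130, 149 and 163 CPM in JA WT and at 40.4, 35.5 and 37.0 CPM in mock lhp1. Mock WT replicate 1 was well below every other library, and the JA WT libraries stood above all others. The rise was 2.22 ± 0.20 on the log2 scale (4.67-fold, edgeR adjusted p = 1.55e-05). It was 1.96 without mock WT replicate 1. IGMT1 stands in a tandem array with IGMT3, IGMT2 and IGMT4, whose coding sequences are 92.5% to 93.1% identical to it, with shared runs of 71 to 149 bases. The sources used here do not say how reads that match several copies were counted, so the split of reads between these 4 genes is uncertain. Such a split cannot change their summed level if no read was discarded or counted for several copies, which is not known either. That summed level was 98.9 ± 5.49 CPM in mock WT, 229 ± 28 after jasmonate and 99.2 ± 1.22 in the mutant (mean ± SD, n = 3, not divided by length).

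Other hydroxylase and methyltransferase genes of the ring rose where CYP81F2 did not pass. Of 7 further such genes 4 were higher after jasmonate, with a median log2 fold change of 0.655. CYP81F4, whose product hydroxylates another position of the ring, stood at 227, 377 and 224 CPM in mock WT. It stood at 869, 926 and 805 CPM in JA WT and at 503, 529 and 497 CPM in mock lhp1. It rose by 1.65 ± 0.17 on the log2 scale (edgeR adjusted p = 4.66e-05). With mock WT replicate 2 left out the rise was 1.94. CYP81F3 rose by 1.36 ± 0.18 and CYP81F1 by 0.66 ± 0.18 (edgeR adjusted p = 0.000283 and 0.0312). The CYP81F1 call was kept in 4 of the 9 fits that left out a library and lost without mock WT replicate 1 or 3, JA WT replicate 1 or 2 or mock lhp1 replicate 1 (edgeR adjusted p = 0.0524 to 0.118). It was also lost with total-count scaling or with only the 2 compared groups fitted (edgeR adjusted p = 0.0676 and 0.0863). CYP81F4 made up 87.9%, 92.7% and 88.9% of the level per kb of the 4 CYP81F genes in mock WT, JA WT and mock lhp1, and CYP81F2 made up 1.36%, 0.527% and 0.679%.

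IGMT5, the methyltransferase gene that lies outside the array and whose product acts on the CYP81F4 product, was found at 37.1, 59.1 and 31.3 CPM in mock WT, at 331, 319 and 262 CPM in JA WT and at 91.8, 83.4 and 83.0 CPM in mock lhp1. It rose by 2.84 ± 0.20 on the log2 scale (7.14-fold, edgeR adjusted p = 1.9e-06), and its coding sequence was 77.3% identical to IGMT1. Within the array IGMT2 (−0.10 ± 0.25), IGMT3 (−0.75 ± 0.28) and IGMT4 (0.45 ± 0.18) did not pass after jasmonate (edgeR adjusted p = 0.842, 0.0976 and 0.117). The IGMT3 difference was −0.22 without mock WT replicate 2, and IGMT3 was called lower without mock WT replicate 1 or 3. IGMT4 was called higher without mock WT replicate 1. A gene on the other strand overlaps CYP81F4 over 2140 bases and another overlaps CYP81F1 over 1820 bases. The sources used here do not say whether counting used the strand, so their values are uncertain. None of the 10 genes overlaps another annotated gene.

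**Figure D3:**
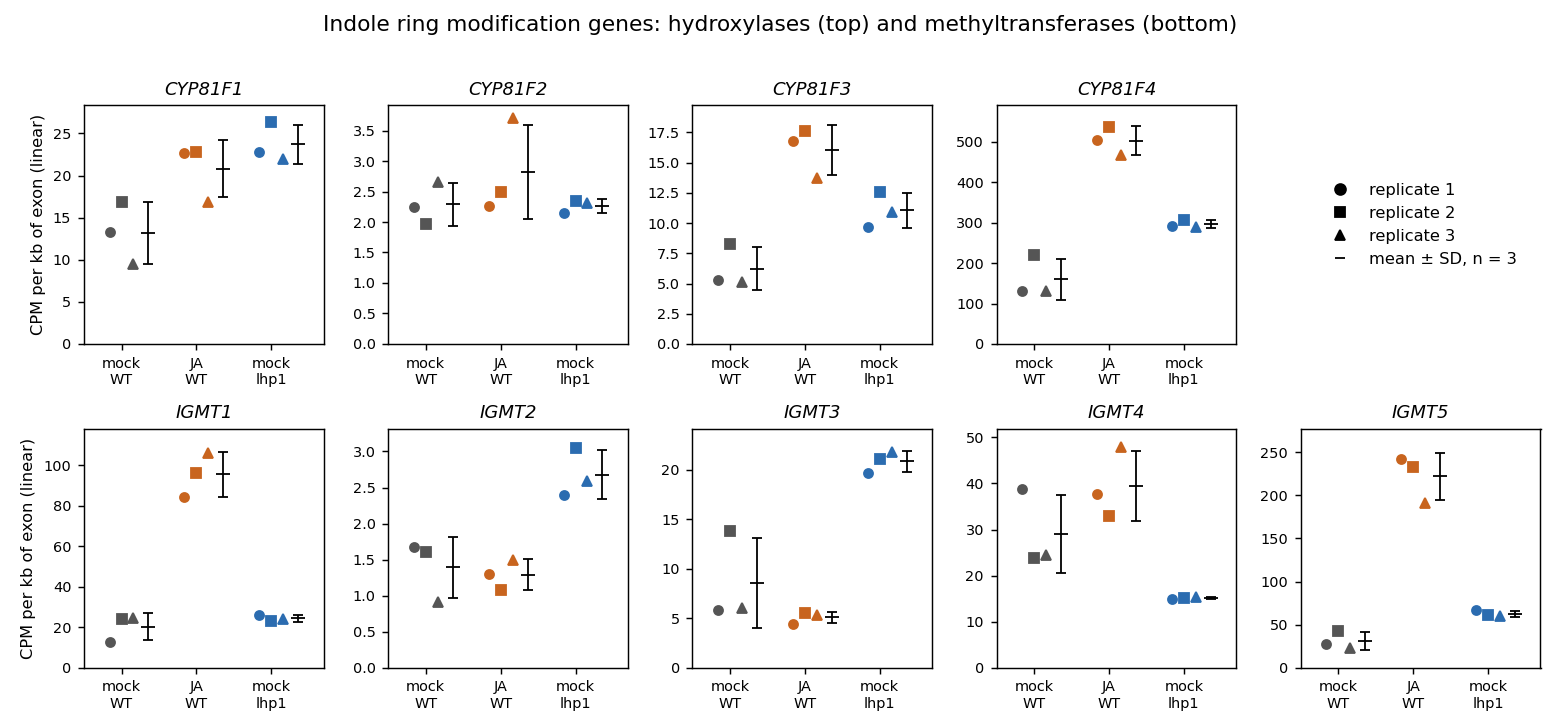
Level in CPM per kb of exon (linear axes from 0, a scale of its own in each panel) of 4 CYP81F hydroxylase genes and 5 IGMT methyltransferase genes in each library, with the mean and SD of each group of 3. IGMT1, IGMT5, CYP81F3 and CYP81F4 are highest in JA WT, CYP81F2 overlaps between groups, and IGMT2 and IGMT3 are highest and IGMT4 lowest in mock lhp1.

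In lhp1 without added jasmonate 2 of the 10 genes, the CYP79B pair, were higher than in mock WT, by 1.2- to 1.25-fold. Across all 20986 tested genes 25.5% were called, 11.1% higher and 14.4% lower in mock lhp1 than in mock WT, and of the 10 genes 2 were higher and 0 lower. The median log2 fold change of the 10 was 0.08, where that of all tested genes was 0.00434. At an unadjusted p under 0.05, with DESeq2 and with limma voom 0 of the 10 were lower. The libraries did not overlap for 3 of the 10, against 44.6% of all tested genes. The comparison shares the mock WT libraries with the jasmonate comparison.

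The 2 genes called were CYP79B3, at 0.32 ± 0.083 on the log2 scale (1.25-fold, edgeR adjusted p = 0.0158), and CYP79B2, at 0.26 ± 0.082 (1.2-fold, edgeR adjusted p = 0.037). The CYP79B3 call was lost without mock lhp1 replicate 1 or 2 (edgeR adjusted p = 0.0705 and 0.0563). The CYP79B2 call was lost without mock WT replicate 1 or 3 or any 1 mock lhp1 library (edgeR adjusted p = 0.0619 to 0.109). Both values kept their direction in all of these fits, at 0.282 to 0.371 and 0.239 to 0.297. Scaling by total counts gave 4 of the 10 genes higher, adding MYB34 and UGT74B1, and put CYP79B2 at 0.408.

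The other 8 genes did not pass, and their intervals limit how far they could have moved. CYP83B1 differed by 0.013 with an interval of −0.183 to 0.208, SUR1 by 0.0098 with −0.183 to 0.202, and UGT74B1 by 0.15 with −0.020 to 0.316 (edgeR adjusted p = 0.933, 0.951 and 0.179). The regulators MYB34 at 0.17 (−0.083 to 0.415), MYB51 at −0.21 (−0.488 to 0.059) and MYB122 at −0.06 (−0.489 to 0.361) did not pass either (edgeR adjusted p = 0.307, 0.229 and 0.839). MYB51 was nevertheless lower in each mock lhp1 library than in each mock WT library. IGMT1 differed by 0.25 (−0.184 to 0.691) and CYP81F2 by −0.02 (−0.463 to 0.428), with edgeR adjusted p = 0.377 and 0.962. None of these 8 intervals reached a change of 0.70, the rise of MYB34 after jasmonate.

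All 7 further ring modification genes were called in the mutant. Of the 7, 6 were higher and 1 lower in mock lhp1, with a median log2 fold change of 0.886. IGMT3 was present at 8.37, 19.8 and 8.64 CPM in mock WT, at 6.35, 7.90 and 7.65 CPM in JA WT and at 28.2, 30.3 and 31.3 CPM in mock lhp1. It was higher by 1.28 ± 0.26 on the log2 scale (edgeR adjusted p = 0.00554). The difference was 1.81 with mock WT replicate 2 left out, a library that lay between the other mock WT libraries and mock lhp1. IGMT5 was higher by 1.02 ± 0.19, IGMT2 by 0.94 ± 0.24 and CYP81F4 by 0.89 ± 0.17 (edgeR adjusted p = 0.00357, 0.0152 and 0.00379). The IGMT2 call was lost without mock lhp1 replicate 2 (edgeR adjusted p = 0.0669), and IGMT2 rests on only 35 to 65 counts per library in mock WT and 71 to 88 in mock lhp1.

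IGMT4 went the other way, at 71.0, 43.6 and 44.8 CPM in mock WT, at 68.9, 60.4 and 87.6 CPM in JA WT and at 27.5, 27.6 and 28.1 CPM in mock lhp1. It fell by 0.94 ± 0.18 on the log2 scale in the mutant (edgeR adjusted p = 0.00455), next to the rise of IGMT3 and IGMT2 in the same array. Of the level per kb of the 5 IGMT genes, IGMT3 made up 9.13% in mock WT and 16.6% in mock lhp1, and IGMT4 made up 32.9% and 12%. The uncertain split of reads between near-identical copies bears on these shares too. The photosynthesis, root and flower markers given above differed in the same libraries. Among the flower markers AG was higher in mock lhp1 by 2.14 ± 0.50 and SEP3 by 1.66 ± 0.38 (edgeR adjusted p = 0.0103 and 0.00992), and both genes were also high in mock WT replicate 2. The part of these markers was not tested.

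JA WT against mock lhp1 differs in both genotype and treatment and uses no mock WT library in the contrast. Across all tested genes 45.4% were called, 25.1% higher and 20.3% lower in JA WT than in mock lhp1, with no overlap for 60.2%. Of the 10 genes 8 were higher and 0 lower, with a median of 1.12, and they were those that rose against mock WT. At an unadjusted p under 0.05, with DESeq2 or limma voom 0 were lower. The log2 fold changes were 1.87 ± 0.084 for CYP79B2, 1.61 ± 0.084 for CYP79B3, 1.73 ± 0.091 for CYP83B1 and 1.97 ± 0.20 for IGMT1. MYB122 stood at 1.32 ± 0.18 and MYB34 at 0.54 ± 0.11 (edgeR adjusted p = 0.000194 and 0.00266). Scaled by total counts MYB34 was at 0.268 and was not called (edgeR adjusted p = 0.0572). MYB51 (−0.06, −0.339 to 0.217) and CYP81F2 (0.33, −0.116 to 0.767) did not pass (edgeR adjusted p = 0.72 and 0.209).

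Around the 10 genes, lists of neighbouring steps cover the supply and finishing reactions of the route. The lists too were chosen with earlier results of these data known. Over 9 such lists, which hold the ring modification genes above, 53 of 56 genes were tested. After jasmonate 32 were higher and 1 lower, where 8.62% of all tested genes were higher and 7.07% lower. In mock lhp1 19 were higher and 1 lower, where 11.1% of all tested genes were higher and 14.4% lower.

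Of the listed tryptophan supply genes, which do not cover every step or gene copy of the route, 7 of 7 rose, with a median log2 fold change of 1.44. TSA1 (tryptophan synthase alpha chain) rose by 1.71 ± 0.13, ASA1 (anthranilate synthase, the entry step) by 1.69 ± 0.062 and AT2G04400 by 1.57 ± 0.085 (edgeR adjusted p = 3.88e-06, 1.8e-08 and 2.42e-07). In mock lhp1 2 of 7 were higher, with a median of 3e-04, and they were TSB2 at 0.41 ± 0.094 and ASB1 at 0.26 ± 0.087 (edgeR adjusted p = 0.00959 and 0.0499). The ASB1 call was lost without any 1 mock lhp1 library, mock WT replicate 1 or 3, or JA WT replicate 2 (edgeR adjusted p = 0.0691 to 0.136), and in 4 of 7 other fits (0.0546 to 0.064). Genes on the other strand overlap ASB1 over 695 and 173 bases, so its values too are uncertain.

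Of 5 late core steps 4 rose, with a median of 1.03. They were GGP1, which trims the glutathione conjugate (1.24 ± 0.11), the glutathione transferase genes GSTF9 (1.03 ± 0.066) and GSTF10 (1.02 ± 0.075), and the sulfotransferase gene SOT16 (1.03 ± 0.081). Their edgeR adjusted p was 1.72e-05, 9.96e-07, 2.92e-06 and 5.02e-06. In mock lhp1 2 were higher, with a median of 0.236. GSTF10 (0.37 ± 0.075, edgeR adjusted p = 0.00492) and GSTF9 (0.26 ± 0.066, edgeR adjusted p = 0.0156) were called, while SOT16 at 0.24 ± 0.080 was not (edgeR adjusted p = 0.0515). SOT16 was called in 6 of 7 fits with another method, scaling or set of groups, at 0.235 to 0.381, and in 3 of the 9 fits that left out a library. The GSTF9 call was lost without mock lhp1 replicate 1 or 3 (edgeR adjusted p = 0.0524 and 0.0626).

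Of 4 APS kinase genes, which supply the activated sulfate for the last step, 2 rose after jasmonate with a list median of 0.444. APK2 rose from 124 ± 20 to 337 ± 35 CPM (mean ± SD, n = 3; 1.44 ± 0.11 on the log2 scale, edgeR adjusted p = 5e-06) and APK1 by 0.97 ± 0.12 (edgeR adjusted p = 0.000199). APK2 is the direct neighbour of CYP79B2 on chromosome 4, with 3436 bases and 0 annotated genes between them. In mock lhp1 APK2 differed by 0.26 ± 0.11 and APK1 by 0.34 ± 0.12, which did not pass (edgeR adjusted p = 0.112 and 0.0585), and the list median was 0.299. APK1 was called with total counts, DESeq2, limma voom or a replicate block (adjusted p = 0.00896 to 0.0481), and APK2 with total counts or a replicate block (0.0146 and 0.0391).

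Of 6 tested further regulators 4 rose, with a median of 0.359. MYC2, the central jasmonate activator, lay at 31.2, 33.2 and 22.5 CPM in mock WT, at 129, 132 and 124 CPM in JA WT and at 39.0, 35.6 and 34.6 CPM in mock lhp1. It rose by 2.15 ± 0.12 (edgeR adjusted p = 3.34e-07) and differed by 0.33 ± 0.12 in mock lhp1 (edgeR adjusted p = 0.0668), a difference called with total counts, DESeq2 or a replicate block (adjusted p = 0.0151, 0.0333 and 0.0317). A gene on the other strand overlaps MYC2 over 3241 bases, so its values too are uncertain. WRKY33 rose by 0.70 ± 0.11 and the Dof factor gene OBP2 by 0.43 ± 0.12 (edgeR adjusted p = 0.0012 and 0.0295). The OBP2 call was lost without mock lhp1 replicate 3, JA WT replicate 1 or 3, or mock WT replicate 2 or 3 (edgeR adjusted p = 0.0501 to 0.14), and also with total counts or with only the 2 groups fitted (0.0643 and 0.0858). In mock lhp1 1 of 6 was higher, WRKY33 at 0.34 ± 0.11 (edgeR adjusted p = 0.0489), a call kept without mock WT replicate 2 or JA WT replicate 2 and lost without any 1 of the other 7 libraries, with limma voom, with a replicate block and with only the 2 groups fitted (adjusted p = 0.0509, 0.0668 and 0.0525).

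Of 7 breakdown and transport genes 3 rose and 1 fell after jasmonate, with a median of 0.197. The glucosinolate transporter gene GTR1 rose by 1.21 ± 0.084 (edgeR adjusted p = 1.81e-06), and the related transporter gene NRT1.9 fell by 0.78 ± 0.13 (edgeR adjusted p = 0.002). Genes on the other strand overlap NRT1.9 over 605 bases and GTR1 over 324 bases, so their values too are uncertain. The root myrosinase gene PYK10 rose by 0.45 ± 0.11 (edgeR adjusted p = 0.0177), a call lost without JA WT replicate 1 or 2 (edgeR adjusted p = 0.06 and 0.0726), with total counts (0.0779) or with only the 2 groups fitted (0.0921). The myrosinase gene PEN2 differed by −0.16 ± 0.10 (−0.383 to 0.059, edgeR adjusted p = 0.322). In mock lhp1 4 were higher, with a median of 0.307, led by NRT1.9 (0.62 ± 0.13), PYK10 (0.51 ± 0.11) and GTR2 (0.47 ± 0.10), with edgeR adjusted p = 0.00625, 0.00758 and 0.00674. PEN2 differed there by −0.22 ± 0.10 (edgeR adjusted p = 0.132).

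**Figure D4:**
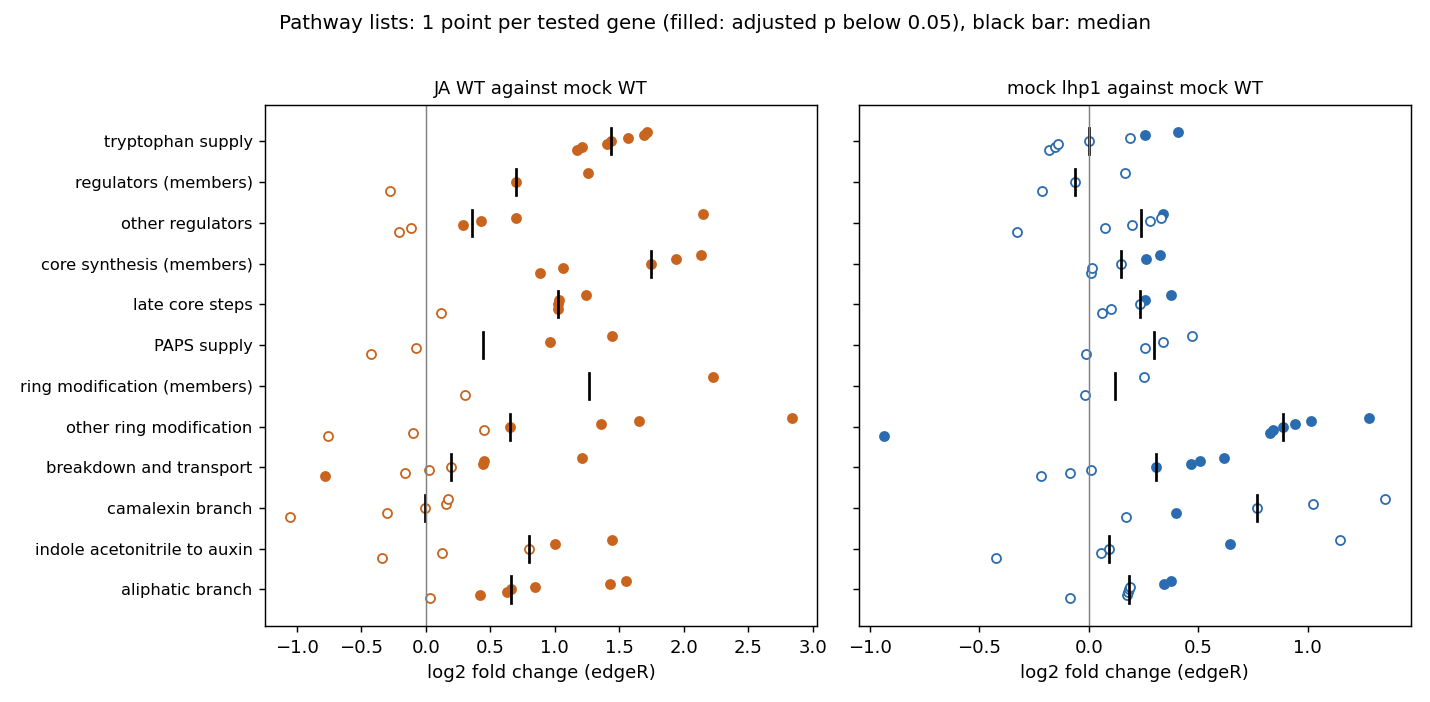
Log2 fold change of each tested gene, by step of the pathway, after jasmonate (left) and in lhp1 (right), with filled points for adjusted p below 0.05 and a black bar at the list median. After jasmonate all 7 tryptophan supply genes and all 5 core genes lie right of 0, and in lhp1 6 of the 7 further ring modification genes are filled points right of 0 and 1 is a filled point left of it.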

How the data were processed

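The authors deposited whole-number read counts per gene, not normalized, for 33602 genes in 9 labelled libraries. Per the submitters' processing notes they used TopHat, HTSeq and edgeR with build TAIR10, and versions, strand setting and treatment of multiply matching reads are not given in the sources used here. Libraries were poly(A)-selected NEBNext libraries run on a NovaSeq instrument, per the labels. The labels write the jasmonate dose as 5 µm, read here as micromolar. An allele number for lhp1 appears in the column headings and not in the labels. A further 3 per-library columns match no labelled sample and were not used.

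Counts were tested as deposited with edgeR 4.0.16 in R 4.3.3 (TMM, filterByExpr leaving 20986 genes, glmQLFit and glmQLFTest on 1 mean per group over all 9 libraries, two-sided, Benjamini-Hochberg adjusted p below 0.05). JA WT and mock lhp1 were each compared with mock WT, and JA WT with mock lhp1, the first named minus the second. The SE beside a log2 fold change is its absolute value divided by the square root of F, with an approximate 95% interval from it. CPM is on the TMM scale, and CPM per kb divides it by the exon length in RefSeq's TAIR10.1, which also gave names (32835 of 33602 loci matched), coordinates and promoter sequences. The count table holds no coordinates, so none were mixed between builds. Shared runs and motif matches were counted over 27443 protein-coding gene promoters of 250 bases, and coding sequences were aligned with Biopython 1.88. The fit was tested on simulated counts. Figures used matplotlib 3.10.9 in Python 3.11.15.

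Totals per library were 18081553 to 31454984 counts, the biological coefficient of variation was 0.106, and no replicate pair lay within sampling noise. The 10 genes, LHP1, MYC2, SOT16, IGMT2, CYP81F4 and PEN2 were named whatever their values, and from 9 lists of neighbouring steps up to 3 called genes with the largest change per comparison with mock WT. IGMT4, CYP81F1, MYB28 and the markers AG, SEP3, AP3 and PI were named after their values were seen. The genes and lists were chosen with earlier results of these data known. Alternatives were DESeq2 size factors, total-count scaling, no filter, DESeq2 1.42.0, limma 3.58.1 voom, a replicate block, only the groups compared, and each library left out.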

Additional observations from a re-analysis of the deposited data

How the results depend on the processing

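Of 2160 alternative values for the named genes 2010 kept their direction and side of the threshold, 84 fell short of it, 42 newly passed and 24 changed sign. Total-count scaling moved the median log2 fold change of all genes by −0.122 after jasmonate, 0.146 in lhp1 and −0.268 between JA WT and mock lhp1. It gave 4 of the 10 genes higher in lhp1, adding MYB34 and UGT74B1, and 3034 genes lower after jasmonate, 5045 higher and 1878 lower in lhp1, and 2515 higher and 9229 lower in JA WT than in mock lhp1. Higher genes were then 28.6%, 72.9% and 21.4% of the calls, against 55%, 43.4% and 55.3% with TMM. With only the 2 compared groups fitted, 934 genes were lower after jasmonate. With 1 library left out, 0 to 2 of the 10 genes were higher in lhp1 and 0 to 1 lower after jasmonate, and 1108 to 3295 genes were higher in lhp1. There were 1364 without mock WT replicate 3, 1215, 1108 and 1340 without mock lhp1 replicates 1, 2 and 3, and 3295 without mock WT replicate 2. The cause of these shifts was not tested.

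Values that changed sign had not passed. With total counts they were LHP1 (−0.0103) and MYB28 (−0.0923) after jasmonate, MYB122 (0.0793), CYP81F2 (0.13) and ASA1 (0.0055) in lhp1, and PEN2 (−0.21) and CYP79F2 (−0.196) in JA WT against mock lhp1. With 1 library left out, LHP1 spanned −0.0431 to 0.217, MYB28 −0.0425 to 0.0689 and IGMT2 −0.348 to 0.0296 after jasmonate. In lhp1 the spans were −0.177 to 0.0782 for MYB122, −0.0405 to 0.0584 for CYP83B1, −0.0463 to 0.11 for SUR1, −0.121 to 0.109 for CYP81F2 and −0.335 to 0.475 for MYB76. In JA WT against mock lhp1 they were −0.218 to 0.0188 for MYB51, −0.00328 to 0.101 for PEN2 and −0.0185 to 0.115 for CYP79F2.

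Replicate numbers did not pair the libraries across all 3 groups: deviations of same-numbered libraries correlated at −0.0766 to 0.215, above 0.1 in 2 of 9 pairs. In both other groups at once, 1 of 9 libraries correlated best with its own number. Between mock WT and JA WT same-numbered pairs stood at 0.215, 0.0313 and 0.133, and differently numbered pairs at −0.201 to 0.0852. Same-numbered pairs with a mock lhp1 library stood at −0.0766 to 0.0403. A replicate block gave 8, 2 and 8 of the 10 genes higher in the 3 comparisons, and 1880 higher and 1545 lower genes after jasmonate. MYB122, CYP81F2 and IGMT2 rest on 32 to 189 counts per library. Lower still, MYB76 rests on 6 to 43, CYP71A12 on 6 to 39 and CYP71A13 on 0 to 28. Depth as a limit on the values of these genes was not tested.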

Other observations

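Aliphatic glucosinolates are made from methionine by a parallel route. Of 7 genes of that branch 6 were higher after jasmonate, with a median log2 fold change of 0.663. MYB76, an aliphatic regulator, rose by 1.55 ± 0.41 from 0.507 to 1.48 CPM, a call lost without JA WT replicate 1 or 3 or mock WT replicate 2 (edgeR adjusted p = 0.0238, and 0.058 to 0.0851 without them). CYP79F1, the counterpart of the CYP79B genes for methionine chains, rose by 1.43 ± 0.099 and the regulator MYB29 by 0.85 ± 0.11 (edgeR adjusted p = 1.76e-06 and 0.000302). MYB28, the other main aliphatic regulator, was at 89.8 ± 6.34 CPM in mock WT and 91.8 ± 6.08 in JA WT, a difference of 0.03 with an interval of −0.127 to 0.188 (edgeR adjusted p = 0.829). In mock lhp1 2 of 7 were higher, CYP79F1 by 0.37 ± 0.097 and CYP79F2 by 0.35 ± 0.090 (edgeR adjusted p = 0.0171 and 0.0173), with a median of 0.186. Both calls were lost without mock WT replicate 3 or mock lhp1 replicate 1, and that of CYP79F2 also without mock lhp1 replicate 2.

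Indole-3-acetaldoxime also leads to camalexin and, through indole acetonitrile, to auxin. The 5 tested genes of camalexin and related indole routes did not pass after jasmonate, with edgeR adjusted p from 0.278 to 0.996 and a list median of −0.007. In mock lhp1 1 of 5 was higher, CYP71B6 by 0.40 ± 0.099 (edgeR adjusted p = 0.0142, and 0.0514 without mock lhp1 replicate 1), with a list median of 0.769. The camalexin genes CYP71A12, CYP71A13 and CYP71B15 did not pass there (edgeR adjusted p = 0.123, 0.273 and 0.0537), and the list median was the value of CYP71B15. CYP71A18 and CYP82C2 were too low to test. Of 5 nitrilase and amidase genes 2 rose after jasmonate, NIT3 by 1.44 ± 0.11 and NIT1 by 1.00 ± 0.084 (edgeR adjusted p = 4.47e-06 and 8.75e-06). The list median of 0.8 was the value of NIT4, which did not pass (edgeR adjusted p = 0.118). In mock lhp1 1 of 5 was higher, NIT3 by 0.65 ± 0.11 (edgeR adjusted p = 0.0024), with a list median of 0.093.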
